A study of Mus musculus with 6 samples.

Results

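The genes described here are 10 members of the Notch pathway, namely the receptors *Notch1*, *Notch2*, *Notch3* and *Notch4*, the ligands *Dll1*, *Dll4*, *Jag1* and *Jag2*, and the target repressors *Hes1* and *Hey1*. They were chosen by symbol, as the loci of the deposited table that carry one of these names, and all 10 were found among its 24402 loci. RNA was sequenced from whole lungs of mouse embryos at 12.5 *dpc* (days post coitus) on a C57BL/6 background, with 3 libraries from *Yap* mutants, of genotype Yap-flox/flox; Shh-Cre/+, and 3 from wild-type littermates, called control below. In the mutants, Cre made from the *Shh* locus removes *Yap*, the effector of Hippo signaling, from the lung epithelium. The authors found YAP protein retained in the mesenchyme. The *Shh*-Cre allele itself also takes the place of a working copy of *Shh*. The controls are labelled wild type, and no group is labelled as carrying Cre with *Yap* intact. Loss of *Yap* and the presence of Cre therefore cannot be told apart here.

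Notch signaling passes between touching cells. A Delta-like or Jagged ligand on one cell pulls on a Notch receptor of its neighbour, the receptor is cut by ADAM proteases and γ-secretase, and its intracellular domain enters the nucleus and joins RBPJ and Mastermind proteins to switch on genes such as those of the Hes and Hey repressors. In the embryonic lung the pathway is known for setting the choice between neuroendocrine, ciliated and secretory cells in the airway, for arterial identity of vessels, where *Dll4*, *Notch1*, *Notch4* and *Hey1* are used, and for the smooth muscle coat of arteries, where *Notch3* is used. In liver, *Notch2* and *Jag1* have been described as genes that respond to YAP. The comparison addresses how the transcripts of this pathway stood in lungs that had lost epithelial *Yap*.

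The deposited tables give 1 value per genotype and locus, in FPKM (fragments scaled to transcript length and to library size), summarised by the authors over the libraries. Neither the spread between libraries nor their depth is known from these values. No test was therefore made, no difference below can be set against replicate error, and a locus was called only by size, as at least 1.5-fold in either direction with a mean of at least 1 FPKM. *Yap1* itself had 76.1 FPKM in control lungs against 65.6 FPKM in the mutants, a value that pools epithelium with the tissues that keep *Yap*. The Y-linked genes *Ddx3y*, *Eif2s3y*, *Kdm5d* and *Uty* did not exceed 0.0163 FPKM in the controls, and in the mutants they ranged from 4.61 FPKM (*Kdm5d*) to 16.5 FPKM (*Eif2s3y*), so the groups also differed in the sex of the embryos. *Xist*, a transcript of female cells, had 97.0 FPKM in control lungs against 50.4 FPKM in the mutants, so the mutant group was not male only. The part of embryo sex in the values below was not tested.

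The 4 stretches that follow are the 250 bases directly before the RefSeq transcription start (GRCm38.p6, printed 5′ to 3′ on the strand of the gene) of the 3 members with the highest ratios, *Dll4*, *Notch2* and *Notch4*, and of *Notch1*, which with *Notch4* is one of the 2 members with a TEAD core. TEAD proteins are the DNA-binding partners of YAP, and the core searched was GGAATG on either strand. Capitals mark that core in *Notch1* and *Notch4*, where it is read as its reverse complement, and an N box (CACNAG on either strand, a site type bound by Hes repressors) in *Dll4* and *Notch2*. They lie at chr2:26503823-26504072 (minus strand) for *Notch1*, chr17:34564045-34564294 (plus strand) for *Notch4*, chr2:119325534-119325783 (plus strand) for *Dll4* and chr3:98013288-98013537 (plus strand) for *Notch2*.
Notch1: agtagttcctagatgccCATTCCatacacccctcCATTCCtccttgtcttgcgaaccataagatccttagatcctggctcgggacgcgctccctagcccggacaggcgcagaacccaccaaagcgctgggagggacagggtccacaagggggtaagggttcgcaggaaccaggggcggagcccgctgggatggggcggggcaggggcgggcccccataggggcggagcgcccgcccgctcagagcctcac
Notch4: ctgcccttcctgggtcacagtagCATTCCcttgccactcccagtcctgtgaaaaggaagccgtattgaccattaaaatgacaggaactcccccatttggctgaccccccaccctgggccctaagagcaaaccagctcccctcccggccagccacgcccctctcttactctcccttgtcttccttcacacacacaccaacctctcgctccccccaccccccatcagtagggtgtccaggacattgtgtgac
Dll4: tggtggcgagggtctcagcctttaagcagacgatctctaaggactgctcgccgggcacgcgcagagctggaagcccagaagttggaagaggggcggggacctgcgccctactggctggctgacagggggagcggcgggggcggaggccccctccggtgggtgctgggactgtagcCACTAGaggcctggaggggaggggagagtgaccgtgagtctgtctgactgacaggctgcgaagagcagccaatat
Notch2: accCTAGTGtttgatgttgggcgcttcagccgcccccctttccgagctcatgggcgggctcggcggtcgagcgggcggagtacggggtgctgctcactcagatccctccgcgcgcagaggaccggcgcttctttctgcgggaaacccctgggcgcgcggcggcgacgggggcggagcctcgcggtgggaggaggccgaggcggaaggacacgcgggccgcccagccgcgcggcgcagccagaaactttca

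The RefSeq promoter table held 9 windows for 8 of the members, with 2 for *Dll1*, and none for *Hes1* and *Hey1*. A TEAD core was present in 2 of the 9 windows, beside 12.6% of all 32817 windows of the same length. In *Notch1* the first bases of its 2 matches lay 233 and 216 bases before the start, and in *Notch4* the single match began 227 bases before it. The RBPJ core TGGGAA was found in 0 of the 9 windows and in 21.6% of all windows, and the E box CACGTG in 0 of 9 and in 6.02% of all. An N box was found in 4 of the 9 windows, those of *Dll4*, *Notch1*, *Notch2* and *Notch3*, and in 36.7% of all. The RBPJ and TEAD cores share the letters GGAA and can overlap. A match describes letters only, and binding of YAP or TEAD was not analysed here.

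None (0) of the 10 members reached a 1.5-fold difference between *Yap* mutant and control lungs, where 7.75% of the 12716 loci averaging 1 FPKM or more did. Of the members, 4 were higher and 6 were lower in the mutants, with a median log2 ratio of -0.01, and the median over all 12716 loci was also -0.01. The ratios ran from -0.21 for *Hes1* to 0.49 for *Dll4* on the log2 scale, computed after adding 0.1 FPKM to each value. At a ratio of at least 5 to 4, 2 members differed, *Dll4* and *Notch2*, both higher in the mutants. *Notch4*, at 1.24-fold, reached that ratio only without the added 0.1 FPKM, at 1.253-fold. In the background, with 0.1 FPKM added, 16.4% of loci reached 5 to 4 in either direction and 9.63% did so as the higher value in the mutants. The share of members past either fold was thus near that of all loci.

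**Figure D1:**
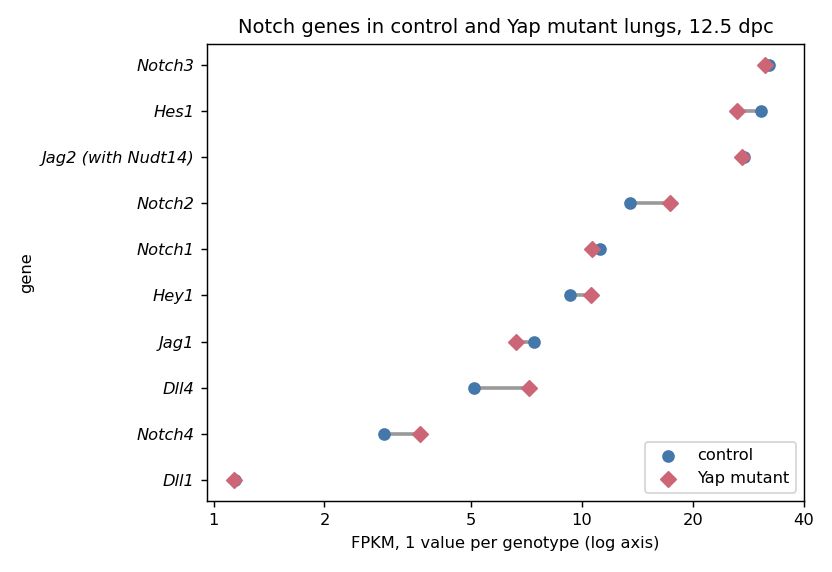
FPKM of the 10 Notch genes (log axis) in control lungs (circles) and *Yap* mutant lungs (diamonds), 1 value per genotype with no error available, ordered by the control value. The widest gaps are those of *Dll4*, *Notch2* and *Notch4*, each higher in the mutants, while *Dll1*, *Jag2* and *Notch3* lie almost on top of each other.

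Among the receptors, *Notch3* had the highest level in both genotypes. *Notch3*, the receptor of vascular smooth muscle and pericytes, lies on chromosome 17 from 32120821 to 32166876 and had 32.0 FPKM in control lungs against 31.3 FPKM in the mutants, a log2 ratio of -0.03. Its control level was above that of 77.2% of the loci that passed the filter on low values. *Notch2*, a broadly expressed receptor, lies on chromosome 3 from 98013508 to 98150367, in 34 exons. It had 13.5 FPKM in control lungs against 17.4 FPKM in the mutants, a log2 ratio of 0.36 (1.29-fold). This is the largest difference among the receptors, and 14.2% of all loci with at least 1 FPKM had a larger one in either direction.

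*Notch1*, the receptor used in airway epithelium, endothelium and endocardium, has its locus in the table on chromosome 2 from 26457841 to 26503822, while the GENCODE gene runs on to 26516663. It had 11.2 FPKM in control lungs against 10.6 FPKM in the mutants, a log2 ratio of -0.08. *Notch4*, which is made largely by endothelial cells, lies on chromosome 17 from 34564295 to 34588630. It was the lowest of the receptors, with 2.91 FPKM in control lungs against 3.64 FPKM in the mutants (log2 ratio 0.32). This was a 1.24-fold difference. At low levels such differences were common, since 36.3% of the 3172 loci with a mean between 1 and 5 FPKM reached a ratio of 5 to 4. The same share was 13.1% among loci between 5 and 20 FPKM, where *Dll4* and *Notch2* lie, and 6.26% at 20 FPKM or more.

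Summed over the receptors, the level was 59.6 FPKM in control lungs against 63.0 FPKM in the mutants. *Notch3* made up 53.8% of this sum in control and 49.8% in mutant lungs, and *Notch2* made up 22.6% and 27.6%. The ratio of *Notch2* to *Notch1*, which does not depend on how the libraries were scaled, was 1.20 in control and 1.63 in *Yap* mutant lungs.

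**Figure D2:**
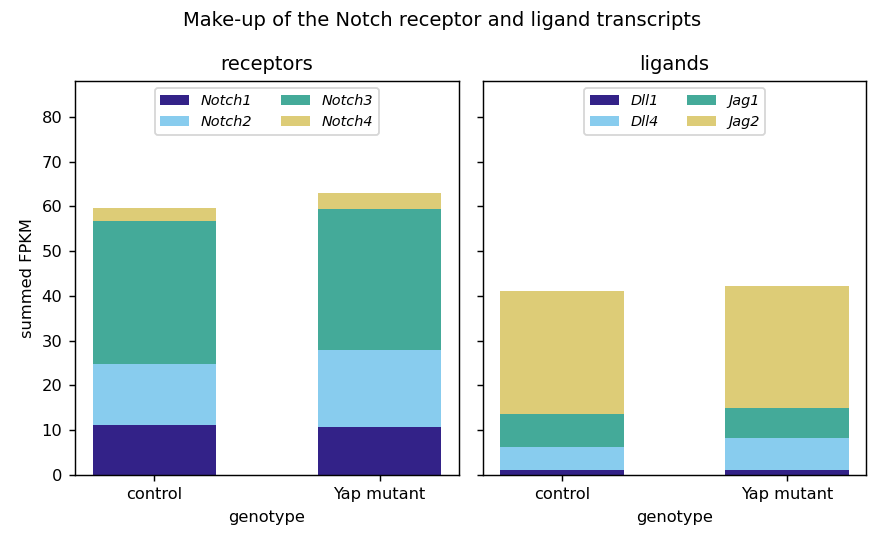
Stacked bars of FPKM for the receptors (left) and the ligands (right) in control and *Yap* mutant lungs. *Notch3* is the tallest segment of the receptor bars and *Jag2* of the ligand bars in both genotypes, and the segments of *Notch2* and *Dll4* are taller in the mutants. The *Jag2* segment holds the joint value of *Jag2* and *Nudt14*.

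The ligands were led by *Jag2*, a Jagged ligand. Its locus on chromosome 12 from 112907811 to 112942137 also holds *Nudt14*, a neighbour on the same strand, so the value belongs to both genes and the share of *Jag2* in it is uncertain. The joint value was 27.5 FPKM in control lungs against 27.2 FPKM in the mutants, a log2 ratio of -0.01. *Jag1*, the Jagged ligand needed for arterial smooth muscle and bile ducts, lies on chromosome 2 from 137081451 to 137116520. It had 7.39 FPKM in control lungs against 6.62 FPKM in the mutants, a log2 ratio of -0.16 (1.11-fold lower).

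*Dll4*, the Delta-like ligand of arterial and sprouting endothelium, had 5.08 FPKM in control lungs against 7.16 FPKM in the mutants, a log2 ratio of 0.49 (1.40-fold). It had the largest ratio of the 10 members, and 9.85% of all loci with at least 1 FPKM differed by more. The locus in the table, on chromosome 2 from 119321199 to 119335666, starts 4585 bases before the annotated gene and takes in *Gm14207*, a gene on the opposite strand. The loci of *Notch1*, *Notch3*, *Notch4* and *Dll1* also hold genes annotated on the opposite strand, and that of *Notch2* holds *Gm42819* and *Gm42820* on the same strand. The library kit kept strand, but whether strand was used in counting is not given in the sources used here. *Dll1*, the ligand of committed neuroendocrine and neural precursors, lies on chromosome 17 from 15367354 to 15375823 and was the lowest member, with 1.14 FPKM in both genotypes (log2 ratio -0.01).

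The summed ligand level was 41.1 FPKM in control lungs against 42.1 FPKM in the mutants. This sum includes the joint value of *Jag2* and *Nudt14*, so shares of it are not shares of ligand transcripts alone. *Dll4* made up 12.4% of the sum in control and 17.0% in mutant lungs, and *Jag1* made up 18.0% and 15.7%. *Jag1* stood above *Dll4* in control lungs and below it in mutant lungs, with a ratio of *Dll4* to *Jag1* of 0.688 and 1.08. *Hes1* and *Jag2* also exchanged places, and the order of the remaining members by level was the same in both genotypes. Without a spread between libraries, it cannot be said which neighbours in this order differ.

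**Figure D3:**
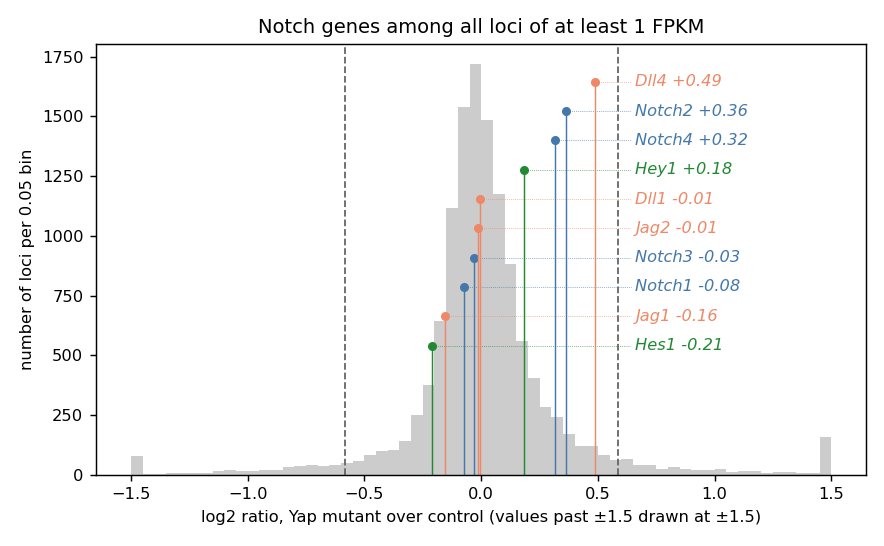
Log2 ratio of *Yap* mutant over control for the 12716 loci averaging 1 FPKM or more (grey histogram, loci per bin), with the 10 members as pins coloured by role (receptors blue, ligands orange, target repressors green). Dashed lines mark 1.5-fold, and every member lies between them, from -0.21 (*Hes1*) to 0.49 (*Dll4*).

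The target repressors leaned in opposite directions. *Hes1*, a basic helix-loop-helix repressor that holds back neuroendocrine fate in the airway, lies on chromosome 16 from 30065357 to 30067796. It had 30.5 FPKM in control lungs against 26.4 FPKM in the mutants, a log2 ratio of -0.21 (1.16-fold lower), which was the lowest ratio of the members. *Hey1*, a related repressor of arterial endothelium and endocardium, lies on chromosome 3 from 8663359 to 8667038 and had 9.30 and 10.6 FPKM, a log2 ratio of 0.18 (1.13-fold). The ratio of *Hes1* to *Hey1* was 3.29 in control and 2.50 in *Yap* mutant lungs. Larger differences in either direction were seen in 26.5% of loci for *Hes1* and in 31.4% for *Hey1*.

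The rest of the pathway was read from a list of 55 further genes, of which 47 had a mean of at least 1 FPKM. Of these 47, 22 were higher and 25 were lower in *Yap* mutant lungs, and the median log2 ratio was -0.01. At 1.5-fold, 2 were called higher and 2 lower, against 7.75% of all loci.

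*Dlk1*, which encodes a Delta-like protein that lacks the domain by which other ligands bind Notch, was higher, with 154.0 FPKM in control lungs against 281.4 FPKM in the mutants (log2 ratio 0.87, 1.83-fold). It was the only one of the 4 other ligand genes with a mean of at least 1 FPKM. *Furin*, the protease that makes the first cut in Notch receptors on their way to the surface and processes many other proteins, was also higher, with 22.1 and 36.3 FPKM (log2 ratio 0.71).

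*Lfng*, the Lunatic Fringe glycosyltransferase that shifts receptors towards Delta-like ligands, was lower, with 6.42 FPKM in control lungs against 4.05 FPKM in the mutants (log2 ratio -0.65, 1.57-fold lower). With 1 FPKM added in place of 0.1 its log2 ratio was -0.55, and it was no longer called. Its 4 fellow glycosylation genes were not called, with log2 ratios from -0.15 (*Poglut1*) to 0.04 (*Pofut1*). *Dtx4*, a Deltex ubiquitin ligase that acts on Notch in the cell, was lower as well, with 10.8 and 6.45 FPKM (log2 ratio -0.73, 1.66-fold lower). In the list of receptor inhibitors and turnover genes, the other 9 genes were not called, and the list had a median of -0.08.

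**Figure D4:**
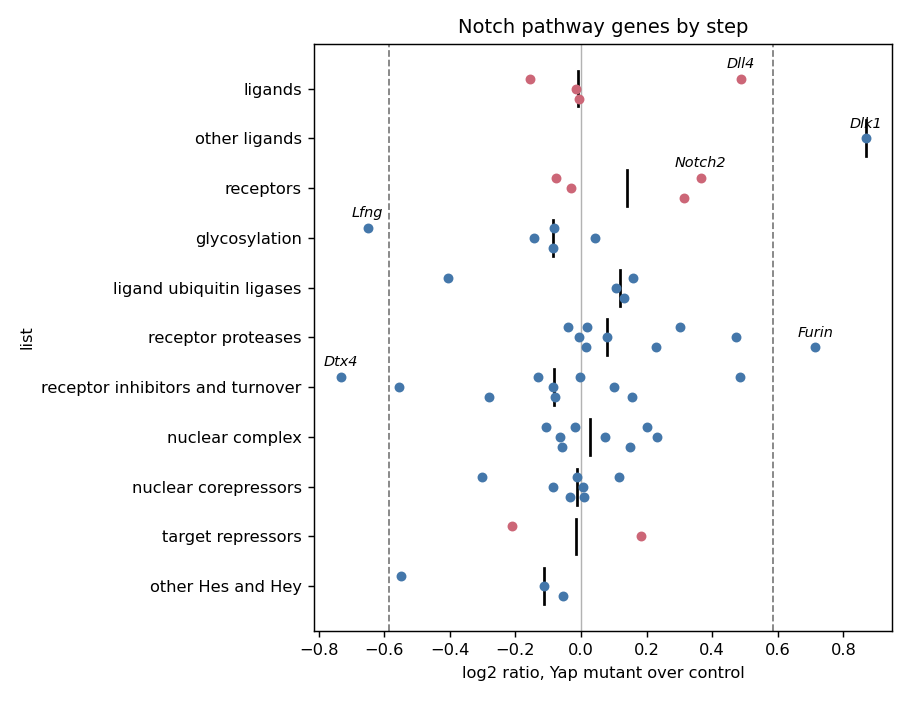
Log2 ratio of *Yap* mutant over control for each pathway gene with a mean of at least 1 FPKM (1 point per gene), by step of the pathway, with the 10 members in red and the further genes in blue. Black bars are list medians and dashed lines mark 1.5-fold, which *Dlk1* and *Furin* pass upwards and *Lfng* and *Dtx4* downwards.

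No gene of the nuclear lists was called, where 7.75% of all loci were, a share at which lists this short can hold none. Of 8 genes of the RBPJ complex, 4 were higher and 4 lower, with log2 ratios from -0.11 (*Snw1*) to 0.23 (*Ep300*) and 0 called, and *Snw1*, a coregulator and the gene of this list with the highest level, had 52.4 FPKM in control lungs against 48.6 FPKM in the mutants. *Rbpj*, singled out after its values were seen, had 31.7 and 30.3 FPKM. Of 7 corepressor genes 0 were called, and the highest of them, *Ctbp1*, had 125.9 and 118.6 FPKM. *Mib1*, the ubiquitin ligase that lets ligands be pulled into the sending cell, had 21.4 and 23.1 FPKM (log2 ratio 0.11).

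Of the 7 other Hes and Hey genes, 3 had a mean of at least 1 FPKM and 0 were called. All 3 were lower in the mutants, as were 6583 of the 12716 loci that passed the same filter. *Hes6*, which antagonises *Hes1*, was the highest, with 20.7 FPKM in control lungs against 19.2 FPKM in the mutants. Genes named next were singled out after their values were seen. *Heyl*, a Notch target of vascular smooth muscle, had 6.66 and 4.53 FPKM (log2 ratio -0.55, 1.46-fold lower), just inside the bound. *Nrarp*, a target that feeds back on the receptor complex, had 6.55 and 7.30 FPKM (log2 ratio 0.15). Of the targets named in the text, *Hes1* and *Heyl* were thus lower and *Hey1* and *Nrarp* higher. *Heyl* and *Nrarp* were not chosen in advance, so no balance between directions can be read from them.

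Because the RNA came from whole lungs, fewer cells of a type and less RNA per cell cannot be told apart, and the levels of marker genes stand beside the members for that reason. All 16 endothelial markers had at least 1 FPKM, none at 0, with a summed level of 419.2 FPKM in control lungs against 439.6 FPKM in the mutants and a median log2 ratio of 0.14. The 4 with the highest levels were *Ramp2* (58.5 and 51.5 FPKM), *Egfl7* (51.0 and 54.8 FPKM), *Cldn5* (47.9 and 55.0 FPKM) and *Cdh5* (36.3 and 39.9 FPKM). Relative to the endothelial median, the log2 ratio was 0.35 for *Dll4*, 0.18 for *Notch4*, 0.05 for *Hey1* and -0.21 for *Notch1*. The ratios of *Notch4*, *Hey1* and *Notch1* thus lay closer to that median than that of *Dll4* did. The highest of the 16 markers, *Tie1*, had a log2 ratio of 0.25, below the 0.32 of *Notch4*.

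The 5 arterial markers were all higher in the mutants, with a summed level of 76.7 FPKM in control lungs against 96.3 FPKM in the mutants, none at 0 and a median log2 ratio of 0.33. Among all 12716 loci averaging 1 FPKM or more, 6133 were higher and 7.75% were called in either direction. *Gja5* was the 1 arterial marker called, with 9.47 and 17.8 FPKM (log2 ratio 0.90), and *Cxcr4*, *Efnb2* and *Nrp1* had ratios of 0.33, 0.18 and 0.12. *Gja5* is also a gene of atrial heart muscle. Cardiac muscle markers were also higher, by more. Of 10, 8 had a mean of at least 1 FPKM and all 8 were called higher, none of the 10 was at 0 in either genotype, and the summed level of all 10 was 99.8 FPKM in control lungs against 672.8 FPKM in the mutants. *Dll4*, *Notch1* and *Hey1* are also used in the endocardium, and the part of heart tissue in their values was not tested.

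Epithelial markers, chosen for the cells that lost *Yap*, were lower for 16 of 20 genes, with a median log2 ratio of -0.58. Their summed level was 795.4 FPKM in control lungs against 705.9 FPKM in the mutants, with none at 0. The list includes *Shh* (log2 ratio -2.71), of which the *Shh*-Cre allele replaces a copy. It also includes *Sox9*, for which the authors report signal from mesenchyme as well. The markers were not uniform, since *Epcam* had 74.9 and 55.6 FPKM, *Cldn6* 98.0 and 64.7 FPKM and *Spint2* 82.2 and 77.6 FPKM, while *Id2* had 117.7 and 211.0 FPKM. Relative to that median, all 10 members had ratios above 0, from 0.37 for *Hes1* to 1.07 for *Dll4*. On that scale the median over all loci was itself 0.58, so being above 0 does not set the members apart from other loci. Neuroendocrine and neural markers, the cells in which *Dll1* is used, were lower for 7 of the 8 genes with at least 1 FPKM, with a median of -0.54. None of the 11 on the list was at 0, and their summed level was 47.6 FPKM in control lungs against 32.6 FPKM in the mutants, while *Dll1* had the same value in both genotypes to 3 digits.

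Of 11 mural and smooth muscle markers, 5 were called lower and 2 higher, where 7.75% of all loci were called. None of the 11 was at 0, and their summed level was 276.7 FPKM in control lungs against 191.9 FPKM in the mutants. The contractile genes *Acta2* (125.2 and 59.9 FPKM) and *Tagln* (40.9 and 19.6 FPKM) were lower. *Des*, also a gene of heart muscle, was higher with 17.6 and 37.7 FPKM, and the pericyte receptor gene *Pdgfrb* had 36.3 and 41.4 FPKM. The list was mixed, with log2 ratios from -2.15 (*Myh11*) to 1.18 (*Abcc9*) and a median of -0.33. Among the genes used in pericytes, *Rgs5* was called lower (-0.70) and *Abcc9* higher, the latter at only 0.767 and 1.87 FPKM. *Kcnj8* (0.23) and *Cspg4* (0.08) were not called, nor was the contractile gene *Cnn1* (-0.33). *Myh11*, *Abcc9*, *Rgs5*, *Kcnj8*, *Cspg4* and *Cnn1* were singled out after their values were seen. *Notch3*, which is used in mural and smooth muscle cells, had a log2 ratio of -0.03. Of all loci averaging 1 FPKM or more, 0.244% had a lower ratio than *Myh11* and 98.3% a lower one than *Abcc9*. Nearly any locus therefore falls within the range of the list, as *Notch3* did. Cell type shares were not measured, and their part in these values was not tested.

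**Figure D5:**
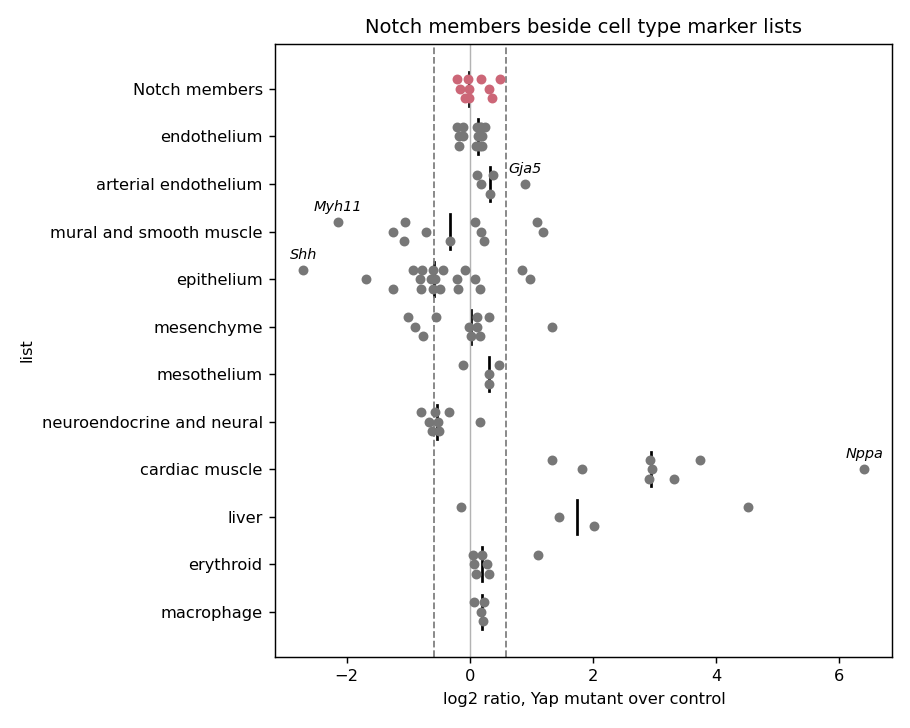
Log2 ratio of *Yap* mutant over control for the 10 Notch members (red) and for marker genes of each cell type (grey), 1 point per locus averaging 1 FPKM or more. Black bars are list medians, from -0.58 for epithelium to 2.94 for cardiac muscle, and dashed lines mark 1.5-fold, between which all members lie.

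The remaining lists had medians of 0.02 for mesenchyme, 0.31 for mesothelium, 0.19 for macrophages and 0.19 for erythroid cells. For liver markers the median was 1.74 over the 4 of 8 genes with at least 1 FPKM, and the summed level of all 8 was 9.41 FPKM in control lungs against 41.5 FPKM in the mutants. Those 4 genes were not uniform, since 3 were called higher, up to 4.52 for *Ttr*, while *Alb* was slightly lower (log2 ratio -0.15). Of all loci, 7.75% were called.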

How the data were processed

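RNA was extracted from whole lungs of embryos at 12.5 *dpc*, 3 *Yap* mutant and 3 wild-type samples grouped by their titles, and sequenced paired-end on HiSeq machines from libraries that keep strand. TopHat, Cuffdiff and mm10 are named in the submitters' processing notes, without versions. The authors summarised the libraries of each genotype into 1 FPKM value per locus in both deposited tables. FPKM was inferred from the Cuffdiff layout, since the headers do not name it. The tables also hold the authors' own fold changes and p-values, which were not used. The shorter table holds 2395 of the 24402 loci, and 25 differ from the longer table by over 1%, 0 of them members or pathway genes.

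Log2 ratios were computed as log2((mutant + 0.1)/(control + 0.1)) from the longer table, for loci averaging 1 FPKM or more. Values per library were not used, so precision is unknown and no test was made. Starts in the table count from 0 and were raised by 1. With this, 20733 of 21012 loci with a single RefSeq symbol (98.7%) overlapped that gene on GRCm38. Exons and neighbours are from GENCODE M21. Promoter windows are from RefSeq.

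The members and lists were chosen with earlier results of these data known. Named were all members, pathway genes past 1.5-fold or else the highest of each list, and the 4 highest markers of endothelium, arteries, mural cells and epithelium. Other genes, those that gauge *Yap* and the sex of the embryos and the ends of ranges included, were chosen after their values were seen. The alternatives tried were other folds, filters, pseudocounts and centrings, loci with a single symbol, and the shorter table. The ratio script was tested on simulated data. The work used Python 3.11.15, numpy 2.4.6, pandas 2.3.3 and matplotlib 3.10.9.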

Additional observations from a re-analysis of the deposited data

How the results depend on the processing

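No paired analysis was possible because the tables hold 1 value per genotype, and for the same reason no library could be left out. The count of members past the fold was 0 at 1.5-fold and at 2-fold and 2 at a ratio of 5 to 4. *Notch4* also reached 5 to 4 when no pseudocount was used. The count of the pathway list, 4 at 1.5-fold, was 9 at a ratio of 5 to 4 (4 of them higher), 0 at 2-fold, 7 with no filter beyond a value above 0, 3 with a pseudocount of 1 FPKM (*Lfng* lost) and 5 with no pseudocount (*Dtx1* added). The median log2 ratio of the members, -0.01, was -0.15 relative to the endothelial markers and 0.57 relative to the epithelial markers. It moved by less than 0.1 under the other alternatives tried. Relative to the same markers, the median over all loci was -0.14 and 0.58. Every member had a log2 ratio within 0.1 of its reported value under each change of filter, pseudocount, median centring, single-symbol loci or table in which it was kept. *Jag2* is lost when loci with several symbols are left out, and *Notch4* and *Dll1* when a mean of at least 5 FPKM is required. Among loci averaging 5 FPKM or more, the medians were -0.70 for mural cells, 3.14 for cardiac muscle and 3.27 for liver. With a pseudocount of 1 FPKM they were -0.37 for neuroendocrine and neural, 2.82 for cardiac muscle and 1.45 for liver markers. Without a pseudocount cardiac muscle had 3.12, and without the filter liver had 0.59. The depth of the libraries is unknown, so what it limits cannot be stated.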
